A study of Mus musculus with 12 samples.

Results

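The 10 tubulin genes described here, 6 beta-tubulins (Tubb2a, Tubb2b, Tubb3, Tubb4b, Tubb5 and Tubb6) and 4 alpha-tubulins (Tuba1a, Tuba1b, Tuba1c and Tuba4a), were taken from the 26301 genes of a mouse liver count table by matching Entrez identifiers to these symbols. All 10 were found and all 10 passed the filter on low counts. They were chosen by the counts of Tubb2a and Tubb2b, which were higher in the tumors than in the control livers, so every difference between tumors and controls is given for them as a description, without a test. The table held 12 libraries, of 4 livers from wild-type mice, 4 liver tumors labelled DKO (Alb-Cre, E2f7 and E2f8 conditionally deleted) and 4 liver tumors labelled TKO (Alb-Cre, Rb1, E2f7 and E2f8 conditionally deleted). The mice were adult, were kept in an end-of-life study, had been bred into the FVB background according to the methods of the study, and the wild-type mice were matched to them for age. Alb-Cre expresses the recombinase from the albumin promoter, which is active in hepatocytes and their precursors, and which other cells of a liver or tumor carried the deletions was not tested. The control group was liver without a tumor, so genotype and tumor state cannot be told apart in any comparison with it, and no library came from a tumor with intact E2f7 and E2f8.

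Alpha- and beta-tubulin pair into the dimers from which microtubules are built, and mice carry a small family of genes for each. The beta-tubulin isotypes are nearly the same over most of their length and differ mainly in the acidic tail at the end of the protein, to which enzymes add glutamate and glycine and on which motors and other proteins land. Tubb5 and Tubb4b are made in many tissues, while Tubb2a, Tubb2b and Tubb3 are best known from neurons, and Tubb6 is known from many non-neuronal cells and from muscle. In hepatocytes microtubules carry secretory vesicles and bile canalicular proteins, and in dividing cells they build the mitotic spindle. Cells also hold their tubulin mRNA level to the amount of free dimer, through the adaptor TTC5 that recognises the start of a tubulin chain as it leaves the ribosome.

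The genes share so much sequence that the counts of some of them depend on how reads were placed. Tubb2a (Entrez 22151) lies on mm9 chromosome 13 from 34166170 to 34169877 and Tubb2b (Entrez 73710) next to it from 34218877 to 34222223, both on the minus strand and 48999 bases apart. Their coding sequences, 1338 bases each with the stop codon, differed at 47 bases, and 45 of the 47 codons that differed encode the same amino acid. Of these differences 43 lay before coding base 610, and from base 610 to base 1160 the genes were identical over 551 bases. The first 57 coding bases are shown because they hold the start of the chain that the autoregulation reads, in capitals where the genes differ from each other (mm9, minus strand, coding exon 1 of 4, chr13:34169742-34169798 for Tubb2a and chr13:34222046-34222102 for Tubb2b).
Tubb2a: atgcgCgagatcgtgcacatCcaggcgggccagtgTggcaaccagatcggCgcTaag
Tubb2b: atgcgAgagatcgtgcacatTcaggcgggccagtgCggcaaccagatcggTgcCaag

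The last 60 coding bases before the stop codon encode the isotype tail, and here Tubb2a and Tubb2b differed at 3 bases (coding exon 4 of 4, minus strand, chr13:34166340-34166399 and chr13:34219343-34219402). Tubb4b, the most abundant beta-tubulin of the control livers, is set beside them from the same coding positions (mm9, chr2:25077831-25077890, minus strand), with capitals at the 15 bases where it differed from Tubb2a.
Tubb2a: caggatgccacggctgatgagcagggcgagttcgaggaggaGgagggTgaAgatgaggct
Tubb2b: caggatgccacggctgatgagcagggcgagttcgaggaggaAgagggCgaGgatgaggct
Tubb4b: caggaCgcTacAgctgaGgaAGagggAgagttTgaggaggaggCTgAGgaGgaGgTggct

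Among the alpha-tubulins, Tuba1b, Tuba1a and Tuba1c lie in a cluster on chromosome 15 (98761856 to 98764996, 98780272 to 98783982 and 98860322 to 98868536), while Tuba4a lies alone on chromosome 1 (75211549 to 75215828). The coding sequences of Tuba1a and Tuba1b were identical at 1333 of 1356 bases.

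The reads of these libraries were 40 bases long and were mapped with up to 2 mismatches in the seed and more over the whole read. Every 40-base window of the members' exons was placed on the mm9 genome, exactly or within 2 mismatches over the whole window. This is stricter than the mapping, so more reads may have had several places than these percentages show. Of the 1428 windows of Tubb2a, 754 (52.8%) had an exact copy in Tubb2b, and only 42.5% had no other exact place in the genome. For Tubb2b 33.9% of windows had no other exact place, and 8.38% had none within 2 mismatches. The alpha-tubulin cluster was less distinct still, with 22.9% of windows of Tuba1a, 11.9% of Tuba1b and 33.6% of Tuba1c at a single exact place. Tubb5, Tubb6 and Tuba4a were the most distinct, with 97.4%, 99.2% and 97.1% of windows at a single exact place, which fell to 81.2%, 75.2% and 68.3% within 2 mismatches. Tubb4b lay between these groups at 50.9% (28.8% within 2 mismatches) and Tubb3 at 81.5% (24.4%). How the authors treated reads that fit several places is not given in the sources used here, and the libraries came from FVB mice while mm9 is the sequence of another strain.

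The counts themselves kept the pair together. The Tubb2b count was 16.6% to 27.9% of the Tubb2a count in all 12 libraries, with means of 25.1% ± 3.59 in the control livers, 19.8% ± 2.15 in DKO and 20.4% ± 2.48 in TKO tumors (SD, n = 4 each). Over the same libraries the Tubb5 count went from 22.1% to 154% of the Tubb2a count and the Tubb4b count from 36.1% to 228%. Tubb3, with only 1 to 18 counts per library, stayed at 0.461% to 1.32% of the Tubb2a count, and Tubb2a-ps2, a Tubb2a pseudogene, at 0.390% to 1.32%. Whether the reads counted for Tubb2b, Tubb3 and the pseudogene came from their own transcripts or from those of Tubb2a cannot be told apart from gene totals. In the alpha-tubulin cluster the Tuba1b count was 61.6% to 94.9% and the Tuba1c count 106% to 154% of that of Tuba1a, while the Tuba4a count ranged from 350% to 1496%.

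**Figure D1:**
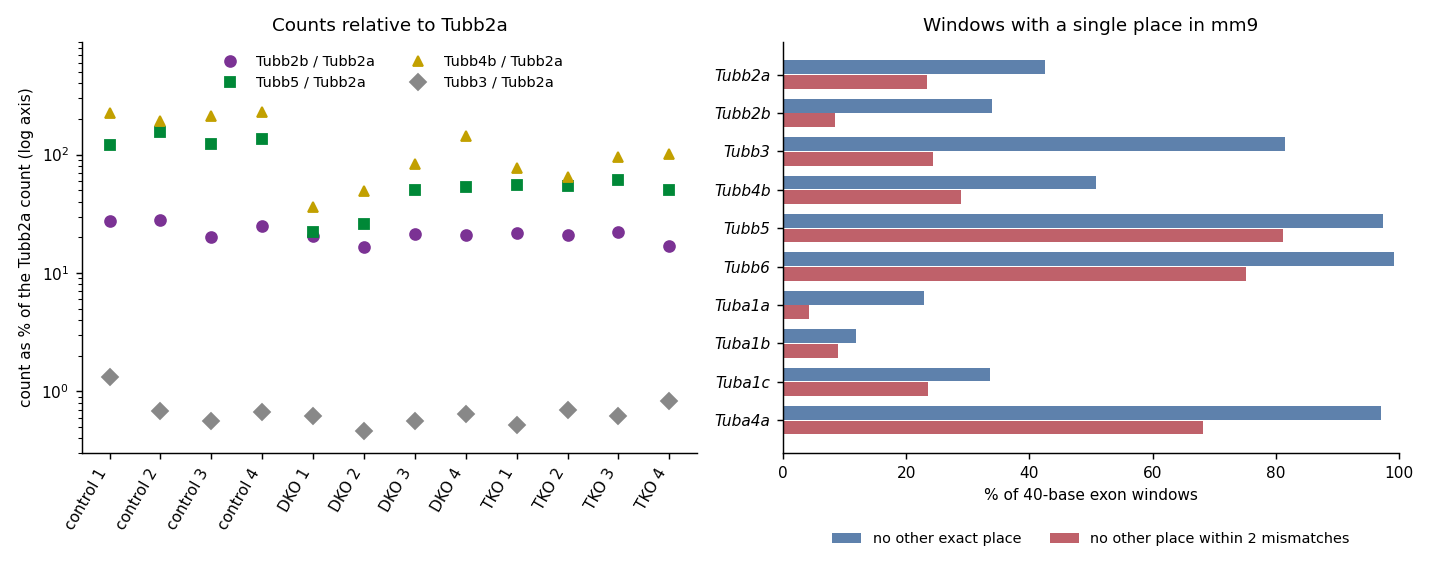
Left, counts of Tubb2b, Tubb5, Tubb4b and Tubb3 as a percentage of the Tubb2a count in each library (log axis), where Tubb2b stays between 16.6% and 27.9% while the percentages of Tubb5 and Tubb4b are lower in the tumors. Right, the percentage of 40-base exon windows of each tubulin gene with no other exact place (blue) or no other place within 2 mismatches (red) in mm9, lowest in the Tuba1 cluster, Tubb2a and Tubb2b and highest in Tubb5, Tubb6 and Tuba4a.

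E2F7 and E2F8 are repressors that bind E2F sites, so the RefSeq promoter windows (GRCm38.p6, 250 bases before to 50 after a gene's start) were searched on both strands. Windows were given for 8 members, not for Tubb2b and Tubb6. None of the 8 held TTTCCCGC, TTTCGCGC, TTTGCCGC or TTTGGCGC, the E2F strings that 2.26% of all 32851 windows held. CCAAT was in the windows of 5 members (Tuba1a, Tuba1c, Tubb3, Tubb4b and Tubb5) and in 37.4% of all windows. GGGCGG, the GC box, was in those of 7 (all but Tuba1c) and in 35.7% of all. TTTGAA, the core of the cell cycle element CHR, was in that of Tubb4b alone and in 17.9% of all. TATAAA was in the windows of Tubb2a and Tubb4b and in 13.6% of all. TGACGTCA, the cAMP response element, which was added to the search after the sequence had been read, was in the window of Tubb2a alone among the members and in 1.79% of all. A match is a run of letters and not a binding site, and its absence holds for this window only. The 250 bases before the Tubb2a start (chr13:34078009-34078258 in GRCm38.p6, minus strand) are shown as the member with the highest fold over control, with a TATAAA box, GGGCGG on either strand and TGACGTCA in capitals.
Tubb2a: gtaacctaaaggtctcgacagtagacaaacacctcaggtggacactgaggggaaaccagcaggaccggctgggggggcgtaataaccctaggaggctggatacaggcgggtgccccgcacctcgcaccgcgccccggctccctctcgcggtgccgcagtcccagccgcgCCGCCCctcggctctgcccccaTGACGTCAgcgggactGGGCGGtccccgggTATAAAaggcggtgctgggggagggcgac

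Total counts per library ranged from 9165812 to 16424973, and no library was a copy of another. Values are given in CPM, counts scaled to the size of the library after edgeR's TMM normalization. The 10 genes together took 0.0188% to 0.0282% of all counts in the control livers, 0.0385% to 0.0652% in DKO and 0.0356% to 0.0646% in TKO tumors. Rb1 was at 8.29 ± 1.75 CPM in control livers, 9.003 ± 1.52 in DKO and 4.45 ± 0.975 in TKO tumors, each TKO library below every other library, with a log2 fold change between the tumor genotypes of -1.01 (SE 0.215, adjusted p = 0.281, edgeR). The totals of E2f7 (4 to 24 counts) and E2f8 were not lower in the tumors by a test. E2f8 was at 4.52 to 8.97 CPM in control livers, 7.59 to 45.6 in DKO and 12.3 to 52.2 in TKO tumors (log2 fold changes 1.72 ± 0.581, adjusted p = 0.103, and 2.08 ± 0.585, adjusted p = 0.146, edgeR).

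Tubb2a had the highest fold over control among the 10 genes. It stood at 22.5, 18.1, 24.2 and 22.1 CPM in the control livers, at 221, 223, 73.3 and 91.9 in the DKO tumors and at 117, 123, 62.0 and 107 in the TKO tumors. The control livers lay close together while the DKO tumors fell into a high pair and a lower pair and every tumor was above every control. The log2 fold change was 2.81 ± 0.367 in DKO (a fold of 6.99) and 2.23 ± 0.360 in TKO (4.70), each with its standard error. Because fewer cells of a type and less RNA per cell cannot be told apart in bulk tissue, neither can more Tubb2a per cell and more cells that express it.

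Tubb2b had a like pattern at a lower level. It was at 6.23, 5.04, 4.88 and 5.49 CPM in the control livers, at 45.2, 36.9, 15.5 and 19.2 in the DKO tumors and at 25.5, 25.7, 13.7 and 18.0 in the TKO tumors. The DKO tumors that were high for Tubb2a were high for Tubb2b, and TKO 3 was the lowest tumor for both. The log2 fold changes were 2.43 ± 0.337 and 1.94 ± 0.333. With the counts of both genes added before the fit, which removes any exchange of reads between them, the log2 fold changes were 2.74 ± 0.359 and 2.18 ± 0.352.

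The other beta-tubulins were higher by less. Tubb3, the isotype used as a neuronal marker, was at 0.297, 0.123, 0.136 and 0.146 CPM in the control livers, 1.38, 1.03, 0.414 and 0.590 in DKO and 0.603, 0.853, 0.384 and 0.895 in TKO tumors. These are 1 to 18 counts, so its log2 fold changes of 2.18 ± 0.518 and 1.88 ± 0.524 are the least precise of the family. Tubb4b was at 50.8, 34.5, 51.3 and 50.5 CPM in control livers, 79.8, 109, 61.4 and 131 in DKO and 90.1, 79.4, 59.1 and 108 in TKO tumors (log2 fold changes 1.03 ± 0.249 and 0.84 ± 0.248). The lowest tumor values of Tubb4b, 59.1 and 61.4, lay above the highest control value of 51.3.

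Tubb5, the most evenly expressed member in the control livers with a coefficient of variation of 4.53%, was at 27.3, 27.9, 29.9 and 29.7 CPM there. It reached 49.0, 57.4, 37.1 and 49.4 in DKO and 64.5, 67.2, 37.5 and 54.4 in TKO tumors, with log2 fold changes of 0.75 ± 0.182 and 0.96 ± 0.183. Tubb6 was at 8.75, 7.38, 8.81 and 6.44 CPM in control livers, 23.2, 17.8, 14.3 and 22.3 in DKO and 19.4, 17.3, 5.98 and 9.70 in TKO tumors. All DKO tumors lay above the controls for Tubb6, but TKO 3 lay below all of them. Its log2 fold changes were 1.30 ± 0.317 and 0.74 ± 0.316.

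The Tuba1 genes were each near 2-fold higher in the tumors. Tuba1a was at 10.7, 7.25, 10.4 and 14.8 CPM in the control livers, 22.8, 23.5, 18.2 and 20.9 in DKO and 29.1, 27.2, 14.9 and 19.99 in TKO tumors, with folds of 1.97 and 2.11. Its lowest tumor, TKO 3, was at the level of control 4. Tuba1b went from 6.88 to 10.8 CPM in controls to 12.4 to 15.8 in DKO and 10.8 to 21.9 in TKO tumors (folds of 1.67 and 1.94), and Tuba1c from 9.10 to 19.7 to 25.3 to 33.4 and 15.8 to 40.6 (1.94 and 1.93). For both, TKO 3 lay within the range of the controls and the DKO tumors were clear of it. With the 3 genes added before the fit the log2 fold changes were 0.92 ± 0.245 and 0.99 ± 0.245.

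Tuba4a, an alpha-tubulin whose gene does not encode the final tyrosine of the other alpha-tubulins, had the smallest folds. It was at 98.6, 95.4, 155 and 113 CPM in the control livers, 116, 160, 85.1 and 194 in DKO and 102, 130, 120 and 146 in TKO tumors. The groups overlapped in both comparisons, with log2 fold changes of 0.26 ± 0.246 and 0.11 ± 0.246.

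**Figure D2:**
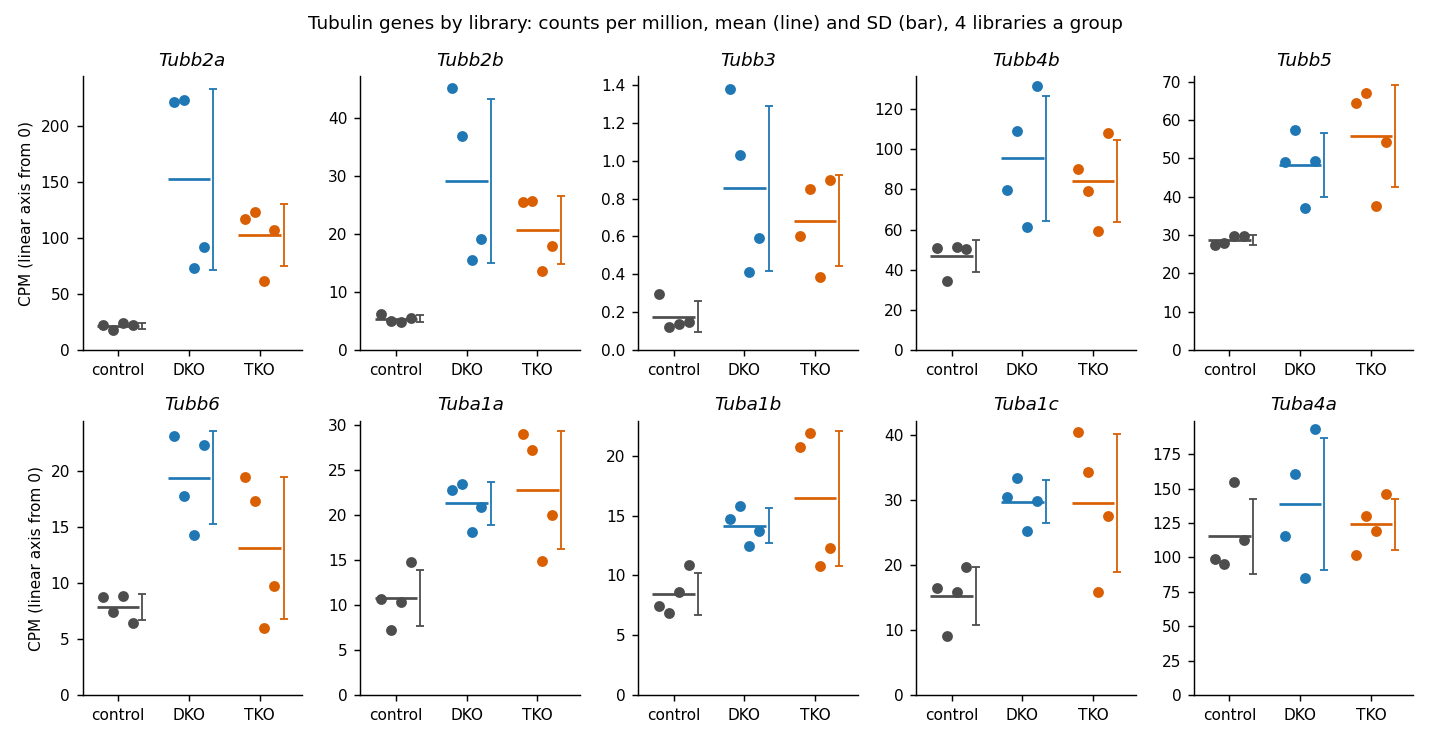
CPM of each tubulin gene by library (points), with the mean (horizontal line) and SD (vertical bar) of 4 libraries a group, on linear axes from 0 that differ between genes. For Tubb2a the 4 control livers sit between 18.1 and 24.2 CPM, the DKO tumors between 73.3 and 223 and the TKO tumors between 62.0 and 123, while for Tuba4a the groups overlap.

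Counted together, 9 of the 10 genes had all 4 DKO values above all 4 control values and 6 had all 4 TKO values above them (Tubb2a, Tubb2b, Tubb3, Tubb4b, Tubb5 and Tuba1a), where 8.87% and 4.38% of all 13882 tested genes did. Since Tubb2a and Tubb2b were chosen for this contrast, nothing is read from these shares. In TKO the count is decided by 1 library, and without TKO 3 it was 9. The median log2 fold change of the 10 was 1.00 in DKO and 0.96 in TKO tumors, and that of all tested genes was 0.02 in both.

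The comparison that the choice of genes did not use is that between the tumor genotypes, which differ by the further deletion of Rb1. The study reports shorter lives, a shorter tumor latency and more Ki67-positive tumor cells in the triple knockout. Loss of Rb1 therefore cannot be told apart from age at collection or tumor stage in this comparison. No member passed the test. For all 10 the TKO and DKO values overlapped, and the quasi-likelihood test of edgeR called 0 of 10 at an adjusted p of 0.05 and 0 at an unadjusted p under 0.05, while DESeq2 called 0. Over all tested genes these calls were 0%, 9.00% and 0.398%. Only 2.12% of all tested genes had every TKO value below every DKO value, so nothing is read from the overlap of the members. Tubb2a was lower in TKO by 0.57 on the log2 scale (log2 fold change -0.57 ± 0.342, adjusted p = 0.631, 95% interval from -1.24 to 0.10), Tubb2b by -0.49 ± 0.313 (adjusted p = 0.651, -1.10 to 0.12) and Tubb6 by -0.56 ± 0.309 (adjusted p = 0.602, -1.17 to 0.05). Their 95% intervals reach from a fall of more than 1 on the log2 scale to just above 0, so a sizeable fall is within the error. The intervals were built from the SE with the normal distribution and are somewhat narrower than the edgeR test implies. Tubb5 was at 0.21 ± 0.180 (adjusted p = 0.741) and Tuba1b at 0.22 ± 0.232 (adjusted p = 0.798), and Tuba1c was closest to equal at -0.01 ± 0.270, with an interval from -0.53 to 0.52. Of the 10 estimates 7 were below 0 and 3 above (Tuba1a, Tuba1c, Tuba4a, Tubb3 and Tubb4b changed sign under an alternative or without 1 library), with a median of -0.17 against 0.01 for all tested genes.

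**Figure D3:**
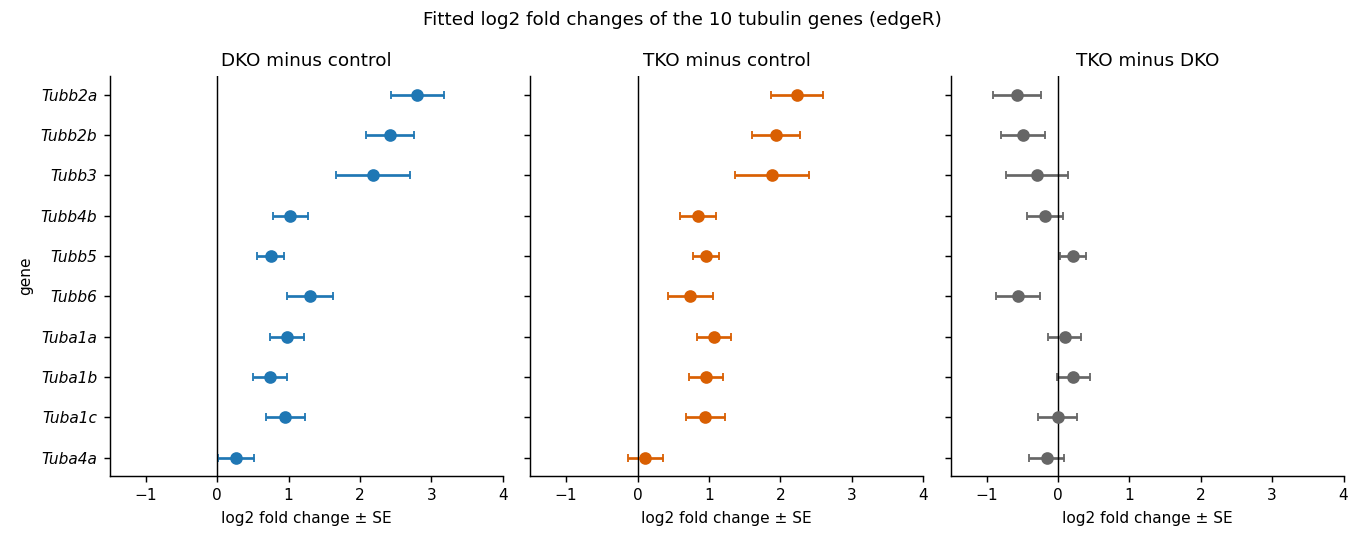
Fitted log2 fold change (point) and standard error (bar) of each tubulin gene in DKO minus control, TKO minus control and TKO minus DKO. Tubb2a is at 2.81 and 2.23 over control, Tuba4a at 0.26 and 0.11, and no gene in the third panel has an adjusted p under 0.05.

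To compare levels between genes, CPM was divided by the length of the gene's exons in kilobases. The whole exon length was used, although 42.5% of windows of Tubb2a and 11.9% of Tuba1b had a single exact place, against 97.1% of Tuba4a. The order of the genes and the shares below therefore depend on how reads with several places were counted, which is not given. In the control livers Tuba4a led at 56.2 ± 13.4 CPM per kilobase, followed by Tubb4b (22.4 ± 3.91), Tubb2a (13.7 ± 1.64) and Tubb5 (8.64 ± 0.391), and these 4 did not overlap each other. Tuba1c (7.73 ± 2.25), Tuba1a (6.54 ± 1.88), Tuba1b (4.50 ± 0.936) and Tubb6 (4.47 ± 0.652) overlapped their neighbours in that order, Tubb2b (2.81 ± 0.315) lay below them and Tubb3 (0.0939 ± 0.0436) at the bottom. In DKO tumors Tubb2a had the highest mean at 96.2 ± 51.1 and in TKO tumors at 64.6 ± 17.4 CPM per kilobase. Its values overlapped those of Tuba4a (67.6 ± 23.4 and 60.5 ± 9.07) in both. They also overlapped those of Tubb4b, 46.3 to 141 against 29.4 to 62.9 in DKO and 39.1 to 77.5 against 28.3 to 51.7 in TKO. In DKO 4 Tubb4b was above Tubb2a, at 62.9 against 58.0 CPM per kilobase. Tubb2b was at 15.2 ± 7.38 in DKO tumors, near Tuba1c (15.0 ± 1.69) and Tubb5 (14.5 ± 2.52), and at 10.8 ± 3.07 in TKO tumors, between Tuba1b (8.77 ± 3.03) and Tuba1a (13.8 ± 3.99), whose ranges overlapped its own.

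The make-up of the beta-tubulin pool differed with this. Tubb2a made up 26.1% ± 0.573 of the summed beta-tubulin level per kilobase in the control livers, 49.9% ± 11.6 in DKO and 45.5% ± 2.12 in TKO tumors. Its share was between 25.5% and 26.9% in every control liver and between 36.3% and 60.5% in every tumor. The share of Tubb4b was 42.5% ± 3.01 in controls, 26.5% ± 9.82 in DKO and 29.0% ± 4.66 in TKO tumors, and that of Tubb5 was 16.6% ± 1.96, 8.40% ± 1.98 and 11.98% ± 0.820, although the CPM of both was higher in the tumors. These differences of share follow from the contrast by which Tubb2a was chosen and are a description. The summed beta-tubulin level was 52.5 ± 6.13 CPM per kilobase in controls, 184 ± 64.3 in DKO and 141 ± 34.1 in TKO tumors, and the summed alpha-tubulin level 75.6 ± 15.5, 110 ± 32.6 and 102 ± 15.4.

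Between the tumor genotypes, the share of Tubb2a was lower in TKO by 4.42 percentage points (difference -4.42, two-sided exact permutation test over 70 assignments, p = 0.40, adjusted p = 0.964 over 18 shares and sums). Leaving out DKO 1 or DKO 2 brought this difference to -0.88 and -1.58, and leaving out DKO 4 to -8.97. The share of Tubb5 was higher by 3.58 points, with every TKO tumor above every DKO tumor, which gave p = 0.0286 in the exact permutation test, the smallest that 4 against 4 allow, and an adjusted p of 0.514. The summed beta-tubulin level differed by -42.9 CPM per kilobase (exact permutation p = 0.257, adjusted p = 0.964).

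In the alpha-tubulin pool Tuba4a kept the largest share, 74.2% ± 5.37 in controls, 60.8% ± 3.32 in DKO and 59.8% ± 9.31 in TKO tumors. Tuba8, an alpha-tubulin outside the 10 genes, reached 11.5% of the pool in DKO 4 and 9.66% in TKO 4 and was between 0.371% and 0.985% in every control liver.

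**Figure D4:**
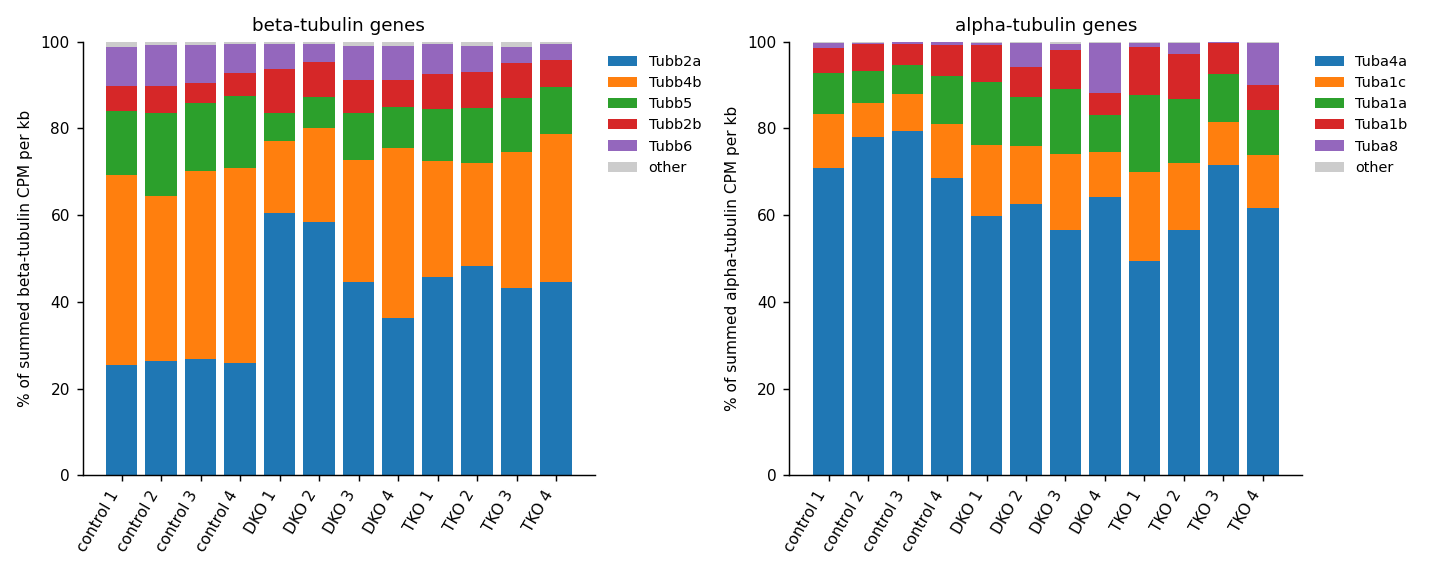
Share of each gene in the summed CPM per kilobase of the beta-tubulin genes (left) and the alpha-tubulin genes (right) in each library. Tubb2a takes 25.5% to 26.9% of the beta pool in the control livers and 36.3% to 60.5% in the tumors, and Tuba8 reaches 11.5% of the alpha pool in DKO 4 and 9.66% in TKO 4. The shares depend on how reads with several places were counted.

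The tumors differed among themselves more than the control livers for the Tubb2 pair. The highest DKO tumor had 3.04 times the Tubb2a of the lowest and the highest TKO tumor 1.98 times, against 1.34 among controls. In the Tuba1 cluster the DKO tumors were alike (coefficients of variation of 10.2% to 11.2%). The TKO tumors spread (28.8% to 35.9%), and so did the control livers (20.8% to 29.1%). For Tuba1a the TKO tumors were at 28.8% and the control livers at 28.7%. Since spindles are built from tubulin, the members were set against a score of 23 cell division genes, the mean of their log2 CPM, over the 8 tumors. Tubb2a had the highest coefficient, with Pearson's r = 0.80 (permutation p = 0.0176 over all 40320 pairings, adjusted p = 0.176 over 20 relations) and Spearman's rho = 0.76 (adjusted p = 0.245). Without DKO 2 and TKO 3, the tumors farthest from the median score, r was 0.49. Leaving out the most extreme scores narrows their range and can lower r by itself. The drop therefore does not show whether the relation rested on these tumors. Tuba1c (r = 0.73) and Tubb2b (r = 0.73) had an adjusted permutation p of 0.177 each, and Tuba4a was at -0.00.

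A score of 12 fibroblast genes was used in the same way, because fibroblasts also express tubulin. All 10 coefficients were negative. Tubb4b was lowest at r = -0.82 (permutation p = 0.0121, adjusted p = 0.176), with rho = -0.88 (adjusted p = 0.145), and r = -0.63 without DKO 3 and DKO 4. For Tubb2a r was -0.60 (adjusted permutation p = 0.244) and -0.92 without those tumors. None of the 20 relations passed the adjustment by Pearson's r or by Spearman's rho, and no coefficient is given within DKO or TKO alone, which hold 4 tumors each. The scores differed between the genotypes, with means of 1.93 in DKO and 1.47 in TKO tumors for the cell division score and 3.60 and 3.88 for the fibroblast score. With each genotype's mean subtracted from score and gene, which was added after the data were seen, r with the cell division score was 0.78 for Tubb2a, 0.69 for Tubb2b and 0.74 for Tuba1c, and r with the fibroblast score was -0.81 for Tubb4b and -0.56 for Tubb2a. Of these 20 relations 0 passed the adjustment in an exact permutation test over the 576 pairings within genotypes, where the lowest adjusted p was 0.144, and 6 had an unadjusted p under 0.05.

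The marker lists of the tissue were read beside the tubulin genes. Over all tested genes edgeR called 2.42% in DKO and 0.0864% in TKO against control, and DESeq2 called 10.4% and 3.49%. By edgeR 24.0% and 16.3% of all tested genes had an unadjusted p under 0.05. The hepatocyte list was high in all groups, at a summed 95666 to 156233 CPM in controls, 134196 to 326322 in DKO and 60996 to 252641 in TKO tumors. Its median log2 fold change against control was below 0, at -0.33 in DKO and -0.22 in TKO tumors. Against control edgeR called 0 of its 10 genes in DKO and 0 in TKO, and DESeq2 called 1 lower in DKO and 0 in TKO. The cell division list was higher in the tumors, at a summed 21.5 to 44.3 CPM in control livers, 59.7 to 209 in DKO and 34.3 to 137 in TKO tumors, and 4 of its 23 genes had an adjusted p under 0.05 in DKO (higher) and 0 in TKO by edgeR, where 21 and 19 had an unadjusted p under 0.05 and DESeq2 called 19 and 4. Its part in the tubulin values was not tested beyond the relations above. The fibroblast list overlapped between all groups, at 286 to 487, 182 to 644 and 244 to 457 CPM, and 0 of 12 genes were called by edgeR in any comparison, with an unadjusted p under 0.05 for 0 genes in DKO and 1 in TKO against control and 0 called by DESeq2. The cholangiocyte list (43.5 to 61.6, 33.1 to 124 and 49.2 to 68.3), the macrophage list (232 to 625, 128 to 524 and 215 to 672) and the lymphocyte list (5.96 to 21.1, 3.42 to 17.9 and 7.76 to 12.9) overlapped between groups in summed CPM. In that order their median log2 fold changes against control were 0.73, -0.70 and -0.78 in DKO and 0.48, -0.13 and -0.09 in TKO tumors. No gene of these lists was called against control by edgeR or DESeq2. The endothelial list overlapped as well (122 to 188, 158 to 204 and 165 to 311), with median log2 fold changes of 0.38 in DKO and 0.42 in TKO tumors against control and 2 of its 8 genes at an unadjusted p under 0.05 in each. In DKO edgeR called 1 of them, Emcn (2.07 ± 0.470, adjusted p = 0.0475), a call lost without any 1 control, without DKO 1, 2 or 4 or without TKO 1 (adjusted p up to 0.144), and DESeq2 also called Pecam1. In TKO both called 0. The list did not move as 1. Clec4g was at 2.06 to 34.3 CPM in DKO tumors against 32.6 to 42.1 in controls, and Stab2 at 14.3 to 29.9 against 24.4 to 33.6. In TKO tumors Clec4g was at 13.3 to 82.5 and Stab2 at 27.1 to 63.1 CPM. These endothelial genes were named after their values were seen, and their part in the tubulin values was not tested. The neural list was at a summed 17.5 to 28.2 CPM in controls, 9.97 to 15.6 in DKO and 11.2 to 30.0 in TKO tumors, most of it from Syt1, the 1 of its 9 genes that passed the filter (15.96 to 26.3, 8.59 to 13.3 and 9.53 to 28.3 CPM). Among the others, Snap25 was at 0 in 10 of the 12 libraries, Elavl3, Elavl4, Nefm and Stmn2 never exceeded 4 counts, and Nefl, a neurofilament gene, reached 5 counts in controls, 20 in DKO and 6 in TKO tumors.

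Over all 12 libraries, the genes whose log2 CPM followed Tubb2a most closely among the 13882 tested were Tubb2b (r = 0.99) and Tubb3 (r = 0.96). Among the 5 closest genes outside the family were Fnbp1l (r = 0.96), Sec61a2, Dbf4 and Lpl (0.95 each). Within the 8 tumors alone the coefficients of these 4 were 0.88, 0.89, 0.92 and 0.73. For Tubb2b the 5 closest included Lpl, Fnbp1l, Slc34a2 and Tmem71, with r = 0.95 each over 12 libraries and from 0.78 to 0.92 within the tumors. Among the other members r with Tubb2a over 12 libraries was highest for Tubb5 (0.89) and Tuba1a (0.89) and lowest for Tuba4a (0.33). The coefficients describe likeness over libraries that share the step from control to tumor and carry no p.

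The rest of the microtubule system was examined through 135 genes in lists by role, of which 116 were tested. In DKO tumors 4 differed from the control livers by edgeR (3 higher and 1 lower), where 2.42% of all tested genes did, with 25 of the 116 at an unadjusted p under 0.05 (24.0% of all genes). In TKO tumors 0 differed, where 0.0864% of all genes did (16 at an unadjusted p under 0.05, where 16.3% of all genes were, and 4 by DESeq2, where 3.49% were). Between TKO and DKO 0 differed, where 0% of all genes did. Here 8 were at an unadjusted p under 0.05, where 9.00% of all genes were, and DESeq2 called 0, where it called 0.398%. DESeq2 called 13 of these genes in DKO against control, 12 higher and 1 lower, where it called 10.4% of all genes. The 4 calls of edgeR depended on single libraries, with 0 calls without control 2, 3 or 4 or DKO 1, 2 or 4, 1 call without control 1, 2 calls without TKO 1 and 9 calls without TKO 3. Without TKO 3 the count in TKO tumors was 1. The median log2 fold change of the 116 was 0.14 in DKO and 0.09 in TKO tumors against control.

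The 3 genes that edgeR called higher in DKO tumors were Kif5c, Kif2c and Clip2. Kif5c, a kinesin heavy chain best known from neurons, was at 1.63, 0.369, 0.881 and 0.586 CPM in the control livers and 26.4, 19.5, 10.8 and 15.8 in DKO tumors (log2 fold change 4.32 ± 1.02, adjusted p = 0.0493, edgeR). In TKO tumors it was at 8.26, 24.7, 0.460 and 0.895, so TKO 3 and TKO 4 stayed at the control level (3.25 ± 1.00, adjusted p = 0.163). Kif2c, the mitotic kinesin that takes apart microtubule ends, was higher by 2.02 ± 0.444 (adjusted p = 0.0460) and Clip2, a plus-end binding protein, by 1.61 ± 0.356 (adjusted p = 0.0460) on the log2 scale in DKO. In TKO Clip2 was at 1.42 ± 0.356 with all 4 tumors above the controls and an adjusted p of 0.130. Kif2c was at 0.690 to 2.65 CPM in TKO tumors, which overlapped the control livers (0.369 to 0.890). Mzt2, a small subunit of the gamma-tubulin ring complex that starts microtubules, was the 1 gene that edgeR called lower in DKO. It was at 8.60, 15.4, 12.3 and 10.3 CPM in control livers and 5.75, 4.43, 5.09 and 5.60 in DKO tumors (-1.15 ± 0.202, adjusted p = 0.0333). In TKO tumors Mzt2 was at 6.42 to 9.43 CPM, which overlapped the control livers (-0.61 ± 0.199, adjusted p = 0.181, edgeR).

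The machinery that folds new tubulin held no called gene. Over all tested genes edgeR called 2.42% in DKO against control, 0.0864% in TKO against control and 0% between the genotypes. DESeq2 called 10.4%, 3.49% and 0.398%, and 24.0%, 16.3% and 9.00% had an unadjusted p under 0.05 by edgeR. The lists are short, so nothing is read from 0 calls. Of the 8 subunits of the chaperonin CCT 0 were called in any comparison by edgeR or DESeq2, with 2 at an unadjusted p under 0.05 in DKO against control and 0 in the others. The lowest p belonged to Cct7 (0.39 ± 0.159, adjusted p = 0.160) and Cct3 (0.36 ± 0.163, adjusted p = 0.206), and the list's median log2 fold change was 0.14 in DKO and 0.06 in TKO tumors. Of the 15 prefoldin subunits, tubulin cofactors and related genes 0 were called by edgeR or DESeq2 (1 at an unadjusted p under 0.05 against control in DKO, 1 in TKO, and 2 between the genotypes), with a median of -0.26 in DKO and -0.06 in TKO. Pfdn5 was at -0.57 ± 0.199 (adjusted p = 0.115) in DKO. Ttc5, the autoregulation adaptor, was at 0.14 ± 0.188 (adjusted p = 0.695) in DKO and 0.20 ± 0.188 (adjusted p = 0.636) in TKO tumors.

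Enzymes that modify tubulin, at its tail or elsewhere, were called 0 of 16 times by edgeR in each comparison, with 4, 3 and 0 at an unadjusted p under 0.05 and 1, 1 and 0 called by DESeq2 in DKO against control, TKO against control and TKO against DKO. In the same order 24.0%, 16.3% and 9.00% of all tested genes had such an unadjusted p. Of all tested genes edgeR called 2.42%, 0.0864% and 0%, and DESeq2 10.4%, 3.49% and 0.398%. Nothing is read from the counts of this list or of the lattice binding list below. Vash1, a tubulin carboxypeptidase, was at 1.56 ± 0.439 in DKO (adjusted p = 0.0729). Ttll11, a polyglutamylase, was at 3.54 ± 0.867 in TKO (adjusted p = 0.129), where TKO 4 alone held 18.4 CPM and the other TKO tumors 0.997 to 2.98. Of 9 lattice binding proteins 0 were called by edgeR in any comparison, with 1 at an unadjusted p under 0.05 (Map4, 0.63 ± 0.163 in DKO, adjusted p = 0.0604, which DESeq2 called). Among the other tubulins Tuba8 had the lowest p, at 3.73 ± 1.21 in DKO (adjusted p = 0.0953) and 2.94 ± 1.20 in TKO (adjusted p = 0.253). It was at 0.492 to 1.48 CPM in the controls, 1.30, 15.9, 2.19 and 37.6 in DKO and 1.93, 5.97, 0.614 and 24.8 in TKO tumors, so its high values came from some tumors of each genotype. Tubg2, a gamma-tubulin, was at 0.41 ± 0.206 (adjusted p = 0.246) and 0.43 ± 0.206 (adjusted p = 0.327).

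Between the tumor genotypes the lowest p of these lists belonged to Dync1i2, a dynein intermediate chain (-0.39 ± 0.130, adjusted p = 0.450), Dynlt3, a dynein light chain (-0.56 ± 0.192, adjusted p = 0.464), and Mzt2 (0.54 ± 0.201, adjusted p = 0.498). Ckap5, a microtubule polymerase, was at -0.36 ± 0.139 (adjusted p = 0.504, edgeR). Ckap5 and Dync1i2 were lower in every TKO than in every DKO tumor, where 2.12% of all tested genes had such values. Mzt2 was higher in every TKO tumor (6.42 to 9.43 CPM) than in every DKO tumor (4.43 to 5.75), and the share of all genes that did so is not given.

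**Figure D5:**
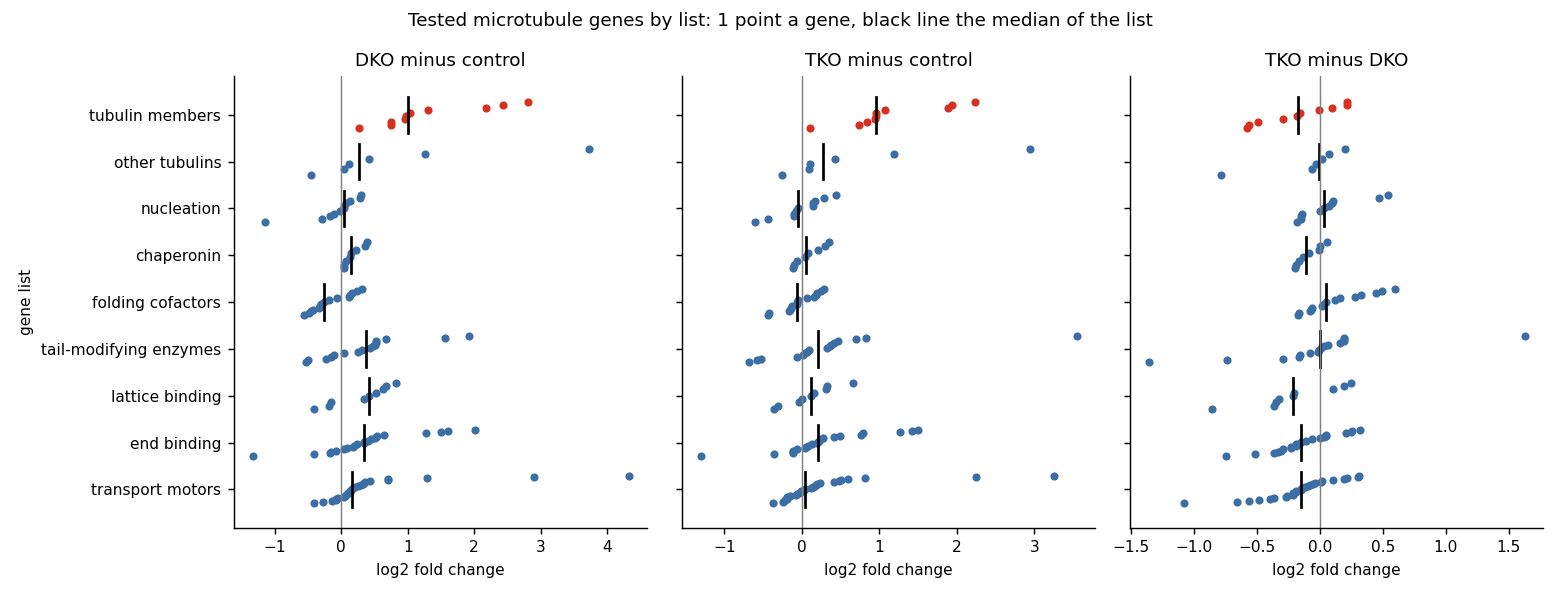
Log2 fold change of every tested microtubule gene (1 point a gene) by list, with the list median as a black line, in the 3 comparisons, whose horizontal axes differ. The 10 tubulin genes (red) have medians of 1.00 and 0.96 over control, above the medians of the other lists (blue), which lie between -0.26 and 0.41, and a median of -0.17 between the tumor genotypes. The list labelled tail-modifying enzymes holds tubulin-modifying enzymes in general, Atat1, Hdac6 and Sirt2 among them.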

How the data were processed

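Poly(A) RNA from 12 livers and tumors was sequenced on a SOLiD instrument. The authors placed 40-base reads on mm9 using BWA and obtained counts per gene from featureCounts (versions, strand setting and treatment of reads with several places are not given in the sources used here), and the deposited values are raw counts. Groups and replicate numbers came from the labels, and p-values measure the spread between livers or tumors labelled as separate. The members and gene lists were chosen with earlier results of these data known.

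All 12 libraries were fitted with edgeR 4.0.16 (R 4.3.3): TMM scaling, filterByExpr (13882 genes kept), 1 mean per group, quasi-likelihood test, Benjamini-Hochberg adjustment over all genes at 0.05. DESeq2 1.42.0, the tool named in the study's methods, was an alternative. Log2 CPM used a prior count of 2. The fit was tested on simulated data. Total counts of 9165812 to 16424973 limit low genes such as Tubb3.

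Of 26301 Entrez identifiers 24191 had a symbol, with 99.4% of counts. Coordinates are 1-based, from GENCODE vM1 (mm9). Coding sequences were read from its transcripts, and promoter windows from RefSeq (GRCm38.p6), which matched 8 of the 10 members. Windows of 40 bases were placed on mm9 allowing 2 mismatches. Named genes were the members, Rb1, E2f7 and E2f8, in each list up to 3 called genes a direction or else the 2 with the lowest p, and the 5 genes most like Tubb2a and Tubb2b, of which 1 is not reported here. Python 3.11.15 with scipy 1.17.1, Biopython 1.88 and matplotlib 3.10.9 was used.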

Additional observations from a re-analysis of the deposited data

Results flagged for a closer look

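In groups of 4 libraries the highest or lowest value of a member was checked for a gap to its neighbour that exceeded Dixon's 95% critical value as a share of the group's range, over 30 groups, where chance flags about 1 in 20. Tubb3 in control 1 stood apart at 0.297 CPM (4 counts), against 0.123 to 0.146 CPM (1 to 2 counts) in the other control livers. Tubb4b in control 2, the library with the lowest total count, stood apart at 34.5 CPM, against 50.5 to 51.3 CPM in the other control livers.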

How the results depend on the processing

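No alternative that was run called a member between TKO and DKO or in its relation to either score, and all 20 fold changes of members over control stayed above 0. In DKO 9 members lay above all controls in each alternative with 10 members, and 6 of 7 did with the near-identical genes summed. In TKO the 6 became 5 with DESeq2 or its size factors, 7 with total counts as the only scaling, 4 of 7 with those genes summed and 6 to 9 on leaving out 1 library (9 without TKO 3). The number of microtubule list genes called in DKO against control was not stable. It was 4, and became 13 with DESeq2, 1 with total counts as the only scaling, 2 with at least 10 counts in every library and 9 with only the 8 libraries of the comparison, and 0 to 9 on leaving out 1 library (0 without control 2, 3 or 4 or DKO 1, 2 or 4, 1 without control 1, 2 without TKO 1 and 9 without TKO 3). In TKO against control the 0 calls became 4 with DESeq2 and 0 to 1 on leaving out 1 library (1 without TKO 3). The fold change of Rb1 between the genotypes was -1.02 with DESeq2, which called it. The cause of these differences was not tested. Replicate numbers are those of the sample titles, and no label says that equal numbers in different groups are related. Deviations of same-numbered libraries correlated at -0.17 to 0.37, with the same number as best match in 8 of 24 cases. The labels also carry letter codes, which were not examined. Some letters are shared between groups, and the letter e is shared by controls 2 and 3. In the check for copies, controls 2 and 3 were the most alike control pair, with a chi-square per gene of 18.3 against 57.9 to 68.5 for the others. Whether these livers were related or handled together was not tested, and the fits treat them as separate. With the replicate block 6 list genes were called in DKO, 0 in TKO and 0 between TKO and DKO, and 0 members between TKO and DKO. A covariate for sex-linked genes was not run because all libraries were alike in it. Depth limits Tubb3 (1 to 18 counts), and short reads limit Tubb2a, Tubb2b and the Tuba1 cluster.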
